A study of Mus musculus with 6 samples.

Results

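Among the cells that the authors labelled Stroma in a single-cell mRNA-seq experiment on mouse CT26 tumors, 244 carried at least 0.1% of their unique molecular identifiers (UMIs, each of which counts 1 captured transcript) on *Col3a1*, the gene of the collagen III chain. They were selected on that label and that single transcript, and made up 1.56% of the 15687 Stroma cells (95% exact binomial interval 1.37 to 1.76, counting error only) out of 33961 cells of all labels. Putative fibroblasts was the working name of the rule, and it was not borne out in all cells. In 109 of them, called low-collagen below, the fibroblast markers *Postn* and *Thy1* were at or near 0. Others, such as *Dcn*, *Lum* and *Pdgfra*, stood higher there than in the remaining Stroma cells, pooled over libraries. The other 15443 Stroma cells served as the contrast. Because *Col3a1* chose the cells, and because every other transcript was counted in the same cells, all values below describe the selected cells and none of them is a test.

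The tumors were subcutaneous grafts of the colon carcinoma line CT26 in female Balb/c mice, collected 5 days after treatment and enriched for CD45+ cells with beads before droplet capture. The sample labels list 6 tumors, 2 each given vehicle, a low dose or a high dose of a PD-1 GITR-L bispecific antibody, an antibody against PD-1 fused to the ligand of GITR. The labels give the high dose as 30 mg/kg, while their fields contradict each other on the low dose, 10 or 30 mg/kg. The paper's legends for its single-cell figures name an isotype control in place of vehicle, and a dose that differs from both. The deposited cells carried 4 library names, M1, M2, M5 and M6, which the labels do not tie to a tumor or a treatment, so no treatment comparison was made and no p-value is given. Values of single libraries are listed in the order M1, M2, M5 and M6.

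Libraries M1, M2, M5 and M6 held 129, 46, 34 and 35 of the selected cells, or 2.05, 0.901, 1.75 and 1.5% of their Stroma cells. M1 alone supplied more of them than the other 3 libraries together, and without it 115 cells stayed, 83 of them in the high-collagen clusters described below. Median depth per cell over all labels was 21800.5, 20266, 11399 and 12096 UMIs in these libraries. The selected cells had a median of 27072 UMIs and the other Stroma cells 40996. Between 9 and 29 cell barcodes were shared by a pair of libraries, at most 0.324% of the smaller library, and 2 selected cells carried such a barcode. A doublet score over 0.25 was found in 3 of the 244. Beyond the Stroma label, 5 cells passed the same cut on *Col3a1* (2 Myeloid, and 1 each of ILC, NK cells and T cell EFF) and were not included.

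Fibroblasts build and remodel the extracellular matrix of connective tissue. They secrete the fibrillar collagens I, III and V as procollagens, which are hydroxylated, trimmed and cross-linked by dedicated enzymes, together with proteoglycans such as decorin that bind the fibrils. In tumors, fibroblasts that produce contractile proteins and matrix and fibroblasts that secrete cytokines and chemokines have been told apart, and cells of the vessel sheath and fascia carry a further set of markers such as *Pi16* and *Dpt*. CT26 is an undifferentiated colon carcinoma line and is known to lack the tumor suppressor locus *Cdkn2a*. *Xist*, the RNA that coats the inactive X chromosome, is transcribed by somatic cells of a female host.

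The distribution of *Col3a1* over Stroma cells had no gap at the cut. Of the 15687 cells, 7921 had no *Col3a1* UMI, and the 5 selected cells nearest to the cut held 0.101% to 0.103% of UMIs on *Col3a1*, and the 5 cells just below it held 0.0984% or more. The selected cells had a median of 0.267% and a maximum of 6.27%. Of the 244, 105 held under 0.2%, and 8 reached the cut with fewer than 10 *Col3a1* UMIs. Fewer cells, 20 and 15, lay between 0.2% and 0.3% and between 0.3% and 0.5%, and above them 24 lay between 0.5% and 1%, 34 between 1% and 2% and 46 at 2% or more.

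**Figure D1:**
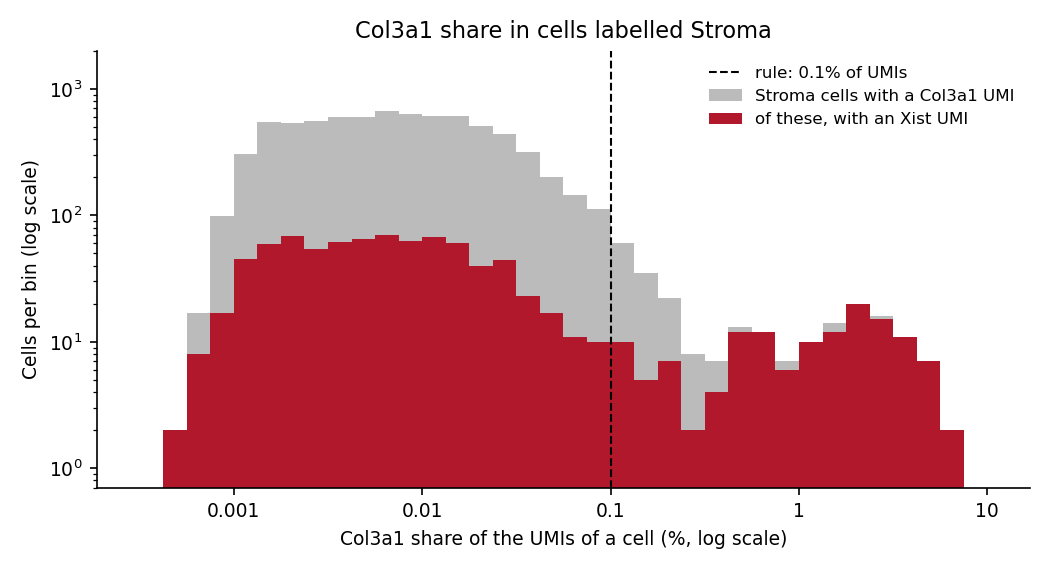
Number of Stroma cells with a *Col3a1* UMI (grey bars, log axis) by the share of their UMIs on *Col3a1* (log axis), with the cells that also had an *Xist* UMI in red and the cut at 0.1% as a dashed line. The counts fall without a gap across the cut, and a smaller group of cells lies above 0.5%, nearly all of it with *Xist* (23 of 24, 32 of 34 and 45 of 46 cells from 0.5%, 1% and 2% on).

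Clustering of the 244 cells on their variable genes, with *Col3a1*, *Xist*, *Cdkn2a*, *Cdkn2b*, *Ptprc* and *Cd3e* kept out, gave 5 clusters. Clusters 3, 4 and 5, in each of which *Col1a1* summed to at least 1000 CPM, held 135 cells, called high-collagen cells here (CPM relates a gene's UMIs to all UMIs summed over a set of cells, with 1000 CPM equal to 0.1% of them). Clusters 1 and 2 held the other 109 cells, called low-collagen cells. The limit on *Col1a1* applied to whole clusters, not to single cells, and was chosen after the clusters were seen. The median share of *Col3a1* was 1.46% in the high-collagen cells and 0.135% in the low-collagen cells, and every cell at 0.5% or more was high-collagen, while 14 of the 105 cells between 0.1% and 0.2% were.

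*Col3a1* alone chose the cells, and 3 further fibroblast markers named with it, *Col1a1*, *Col1a2* and *Dcn*, were not equally high in both sets. *Col1a1*, the main collagen I chain, had 9353, 6379.5, 9061 and 10271 CPM in the high-collagen cells of the 4 libraries, 199, 183, 169 and 217 CPM in the low-collagen cells and 60, 51.7, 66.5 and 61.9 CPM in the other Stroma cells. *Col1a2*, the second collagen I chain, had 11150.4, 8149, 10608 and 12822 CPM in high-collagen, 1739.8, 1598, 1481 and 2277 CPM in low-collagen and 614, 613, 582 and 616 CPM in other Stroma cells. For both genes the 3 sets did not overlap between libraries, with the low-collagen cells nearer to the other Stroma cells than to the high-collagen cells.

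*Dcn*, which encodes the small proteoglycan decorin, followed another order, with 4275, 4799, 6693 and 7119.5 CPM in high-collagen cells, 4098, 5527, 6026 and 4748 CPM in low-collagen cells and 365, 503, 374 and 419 CPM in other Stroma cells. Here the high-collagen and low-collagen libraries overlapped, and both stood above all libraries of other Stroma cells. A further 6 fibroblast markers separated the sets again. The receptor gene *Pdgfra* had 186 to 254 CPM in the high-collagen libraries and 24.6 to 65.8 CPM in the low-collagen ones, and *Thy1*, a surface glycoprotein, had 502 to 583 and 0 to 2.34 CPM. *Postn*, which encodes the matricellular protein periostin, had 695 to 747 and 0 to 0.585 CPM. *Lum* (lumican) was at 803 and 144 CPM over all libraries, *Dpt* (dermatopontin) at 307 and 16.6 CPM, and *Fap* (a surface protease of activated fibroblasts) at 51.2 and 3.09 CPM.

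**Figure D2:**
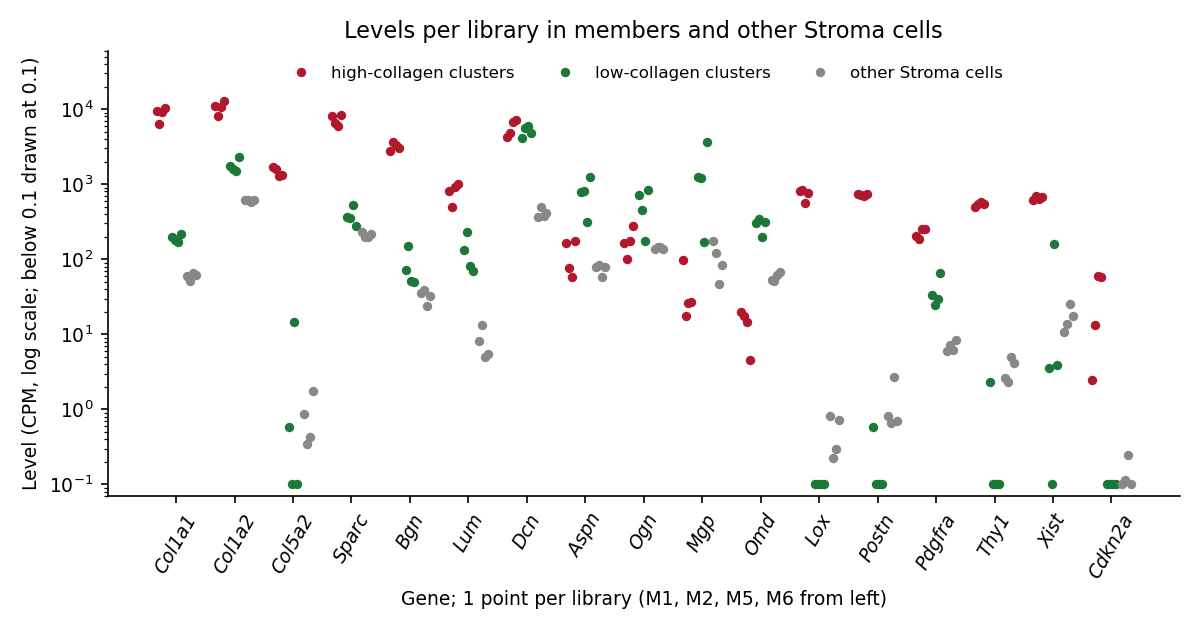
Level in CPM (log axis, values below 0.1 drawn at 0.1) of matrix, receptor and host cell genes in high-collagen (red), low-collagen (green) and other Stroma cells (grey), with 1 point for each of the 4 libraries. *Col1a1* lies at 6379.5 to 10271 CPM in high-collagen cells and at 169 to 217 CPM in low-collagen cells, while *Dcn* overlaps between these sets.

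In the other Stroma cells *Lum*, *Pdgfra*, *Dpt* and *Fap* had 8.93, 6.82, 4.0 and 0.784 CPM. The markers were thus divided in the 109 low-collagen cells, with *Dcn*, *Lum*, *Pdgfra* and *Dpt* at higher pooled levels than in the other Stroma cells and *Postn* and *Thy1* at or near 0. *Fap* was also higher but rested on few UMIs, as 3 counts in the low-collagen cells would be 1.16 CPM. Both sets are described by the selection rule, their collagen level and their leading genes, and no cell type name is given to a cluster. The clusters were made from these same marker genes and divided by a limit on *Col1a1*, so their separation is a description.

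*Xist*, which was kept out of the selection and of the clustering, divided along the same line. For shares of cells with a UMI, each cell was thinned to 5000 UMIs, which dropped 11 shallower ones of the 244, because deeper cells show more genes. *Xist* was then found in 86.2% (112 of 130, 79.0 to 91.6) of high-collagen cells, 0.971% (1 of 103, 0.0246 to 5.29) of low-collagen cells and 3.35% of other Stroma cells. NK cells and cells labelled T cell EFF, from the same female mice, had 95.3% and 96.0%. The median depths before thinning were 32618, 24446 and 42464 UMIs in high-collagen, low-collagen and other Stroma cells, and 10440 and 11564 UMIs in NK cells and T cell EFF. Without thinning the shares were 95.6%, 5.50% and 10.6% in the first 3 sets. The level of *Xist* was 613, 699, 630.5 and 669 CPM in the high-collagen cells and 3.51, 0, 161 and 3.87 CPM in the low-collagen cells, where the value of 161 CPM rests on 22 UMIs in 1 cell of M5 with 2846 UMIs, and the other 5 cells of M5 had none.

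*Cdkn2a*, the locus that CT26 lacks, gave 131 UMIs in 27 of the 135 high-collagen cells and none in the 109 low-collagen cells, which allows a UMI in up to 2.75% of them and sets no limit on cells that express the gene below detection. It was found in 43 of the 15443 other Stroma cells, and also in 491 of 3633 T cell EFF. Of the 131 UMIs, 91 lay in cluster 3, with 65.9% of that cluster's UMIs in 5 cells. The level of *Cdkn2a* in the high-collagen cells differed widely between libraries, at 2.43, 13.4, 60.2 and 57.3 CPM. In the neighbouring gene *Cdkn2b*, also a cell cycle inhibitor, the high-collagen cells had 10.4 CPM, the low-collagen cells 0 CPM and the other Stroma cells 0.120 CPM. Thinned shares with *Ptprc*, the gene of the leukocyte antigen CD45 that the beads bind, were 3.86% in the selected cells and 3.48% in the other Stroma cells, against 97.7% in NK cells. The level of *Ptprc* was 7.68 to 41.6 CPM in the high-collagen libraries and 2.05 to 7.75 CPM in the low-collagen ones.

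The high-collagen and low-collagen cells also differed in where they came from. High-collagen cells numbered 52, 28, 28 and 27 in the 4 libraries, or 0.825, 0.549, 1.44 and 1.15% of the Stroma cells and 0.505, 0.313, 0.391 and 0.357% of all cells of the library. Low-collagen cells numbered 77, 18, 6 and 8, or 1.22, 0.353, 0.308 and 0.342% of the Stroma cells. M1 thus held 77 of the 109 low-collagen cells and 52 of the 135 high-collagen cells, and low-collagen values of M5 and M6 rest on few cells. The median mitochondrial share was 2.85% in high-collagen, 5.37% in low-collagen and 4.87% in other Stroma cells.

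Most of the matrix genes listed were at higher levels in the 244 cells than in the other Stroma cells. Of 8468 genes with at least 10 CPM in either set, 961 (11.3%) were at least 2-fold higher in the selected cells in each of the 4 libraries and 343 (4.05%) at least 2-fold lower, on a log2 scale with a pseudocount of 1 CPM. A gene that meets this in all 4 libraries is called higher or lower here, and the median log2 ratio over all genes tested was 0.02. The selection used this same contrast, so the counts of the lists below stand beside those percentages and nothing is read from the excess. The calls pool the high-collagen and low-collagen cells.

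All 7 fibrillar collagen genes that passed the 10 CPM filter, of 11 listed, were higher, among them *Col3a1*, which chose the cells, with a median log2 ratio of 6.58 (that of *Col1a1*, 6.27 to 6.99 over the libraries). *Col5a2*, a chain of the collagen V that sets fibril diameter, had 1705, 1582, 1299.9 and 1345 CPM in high-collagen cells, 0.585, 0, 14.7 and 0 CPM in low-collagen cells and 0.875, 0.349, 0.434 and 1.73 CPM in other Stroma cells. Its log2 ratio of 9.09 between the selected and the other Stroma cells (8.58 to 9.65 over libraries) was the largest among the named genes with a pseudocount of 1 CPM, whereas with 0.1 CPM *Sfrp2* (11.02), *Ccl11* (10.73), *Cpxm1* (10.16) and *Ptx3* (10.13) stood above *Col5a2* (10.10). The level sat with the high-collagen cells in every library. Its partner *Col5a1* was graded, at 811, 78.7 and 25.7 CPM in the 3 sets.

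Of 12 other collagens tested, 10 were higher, with a median log2 ratio of 3.02. *Col12a1*, a collagen of the fibril surface, had 645, 608, 968 and 742 CPM in the high-collagen cells and 0 to 7.33 CPM in the low-collagen libraries. *Col15a1*, of the basement membrane zone, had 332 CPM in high-collagen cells and no UMI in the low-collagen cells, where 3 counts would be 1.16 CPM. The microfibril collagens *Col6a1*, *Col6a2* and *Col6a3* were at 732, 386 and 801 CPM against 192, 45.9 and 54.0 CPM in low-collagen cells. The basement membrane chains *Col4a1* and *Col4a2* differed less, at 275 and 148 CPM against 201 and 87.2 CPM.

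Among the enzymes that process and cross-link collagen, 14 of 20 tested were higher and none was lower (median log2 ratio 2.04). *Lox*, the lysyl oxidase that starts cross-linking, had 804, 845, 559 and 769 CPM in high-collagen cells and not 1 UMI in the low-collagen cells. *Loxl1* and *Loxl2*, related oxidases, were at 510.1 and 356 CPM in high-collagen and 0.772 and 0.772 CPM in low-collagen cells. *Adamts2*, which removes the amino-terminal propeptide of procollagen, had 441 to 573 CPM over the high-collagen libraries, and *Serpinh1*, the collagen chaperone HSP47, had 1699 CPM in high-collagen, 364 in low-collagen and 308 in other Stroma cells. *Pcolce*, an enhancer of propeptide cleavage, did not reach the 2-fold rule, with 730.4, 691 and 434 CPM.

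Glycoproteins of the matrix gave 30 higher genes of 34 tested, with a median log2 ratio of 4.16 and 1 lower gene, *Lama5*, a laminin chain at 11.4 CPM in the selected and 39.6 CPM in other Stroma cells. *Fbn1* (fibrillin 1) had 884 and 21.6 CPM in high-collagen and low-collagen cells, *Tnc* (tenascin C) 1054 and 3.86 CPM, and *Mfap5*, a microfibril protein, 1622 and 23.2 CPM. *Sparc*, a collagen-binding protein, was at 7316, 365 and 216 CPM in the 3 sets. *Fn1* (fibronectin) was less unequal, at 2478, 1593 and 443 CPM, and *Spp1* (osteopontin) was at 6769, 8211 and 5429 CPM and not called.

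Of 13 proteoglycan genes tested, 8 were higher and none lower. *Bgn* (biglycan) had 3174 CPM in high-collagen, 83.8 in low-collagen and 34.4 in other Stroma cells, and *Vcan* (versican) 493, 1.16 and 0.766 CPM. A set of small leucine-rich proteoglycans ran the other way between the clusters. *Omd* (osteomodulin) had 20, 17.3, 14.6 and 4.5 CPM in high-collagen cells and 308, 345, 198 and 314 CPM in low-collagen cells, with no overlap, and *Aspn* (asporin) and *Ogn* (osteoglycin) were at 122 and 176 CPM in high-collagen and 811 and 648 CPM in low-collagen cells.

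Matrix proteases and their inhibitors were higher in 14 of 17 cases. *Mmp2* (gelatinase A) had 518 and 16.6 CPM in high-collagen and low-collagen cells, while *Mmp3* (stromelysin 1) had 368 and 1410.3 CPM. *Timp3*, an inhibitor that binds to matrix, had 923 CPM in high-collagen and 0.772 CPM in low-collagen cells, and *Timp1* had 4305, 352 and 662 CPM in the 3 sets. In the list of myofibroblast and contractile genes, 5 of 10 tested were higher. *Acta2* (smooth muscle actin) and *Tagln* (transgelin) were at 232 and 212 CPM in high-collagen cells against 1.15 and 0.667 CPM in other Stroma cells, whereas *Tpm1*, *Cald1* and *Cnn3*, which bind actin in many cell types, were at 377, 884 and 312 against 395, 579 and 225 CPM and not called. *Lrrc15*, a membrane protein of myofibroblasts in tumors, had 73.1 CPM in high-collagen and 0.386 CPM in low-collagen cells.

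Markers of other cell types differed between lists. Smooth muscle markers summed to 300 CPM in the selected cells (130 to 566 over libraries) and 2.78 CPM in the other Stroma cells (2.28 to 4.0), and T cell markers to 144 (81.3 to 211) and 11.6 CPM (9.98 to 16.7). NK cell markers summed to 216 (26.8 to 380) and 49.3 CPM (43.3 to 64.8), which overlapped between libraries. Of the T cell sum in the high-collagen cells, 222 CPM, *Cd3e* alone gave 162 CPM. Without the cells that held at least 3 leukocyte UMIs, *Cd3e* not counted, *Col1a1* in high-collagen cells was at 8769 CPM against 8793 CPM with them, and *Xist* at 676 against 647 CPM. The 8 endothelial markers summed to 10.0 CPM (other Stroma 8.10 CPM), with none above the 10 CPM filter, and *Cdh5* (VE-cadherin) had 2 UMIs in all. The smooth muscle genes *Myh11* and *Cnn1* had 6 and 1 UMIs, so the smooth muscle sum rested on *Acta2* and *Tagln*. Of 8 pericyte markers, *Pdgfrb* alone passed the filter, at 98.1, 77.6 and 21.7 CPM in the 3 sets, and *Rgs5* had 68 UMIs. In the epithelial list *Krt19* was higher, at 16.7 CPM in high-collagen cells against 0.598 CPM in other Stroma cells, *Krt18* was lower and *Epcam* had 1 UMI. Markers of Schwann cells, mast cells, B cells and red blood cells summed to 0.972, 1.81, 1.25 and 0.139 CPM.

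Within the 135 high-collagen cells the 3 clusters differed in their leading genes. Folds of a cluster over the other selected cells were ranked with a pseudocount of 5 CPM. Among the 10 largest folds of cluster 5 (40 cells), *Pi16*, *Clec3b* and *Htra3* were above 1000 CPM in each library, whereas *Coch* and *Igfbp2* ranged from 0 to 1287 and from 0 to 1023 CPM over libraries and *Gas6* from 31.6 to 1663 CPM. The cluster held genes known from fascia and vessel sheath fibroblasts. *Pi16*, a peptidase inhibitor of such cells, had 1625, 1817, 2422 and 1589 CPM in the 4 libraries, against 47.6 and 100.2 CPM over clusters 3 and 4. *Dpt* had 1149 CPM in cluster 5, *Clec3b* (tetranectin) 1765 CPM, *Col14a1*, a collagen of the fibril surface, 782 CPM and the complement gene *C3* 1517 CPM. The same genes had 56.7, 85.1, 59.9 and 224 CPM in cluster 3 and 175, 123, 227 and 295 CPM in cluster 4. Cluster 5 also had the highest levels of *Col1a1* and *Col3a1* among the 3 clusters, at 14041 and 31548 CPM, and the lowest median depth, at 21550.5 UMIs. The clusters were numbered by rising median share of *Col3a1*, so the place of cluster 5 in that gene follows from the numbering.

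Cluster 4 (46 cells) was led by genes of the cell cycle, with *Mki67*, *Hist1h2ap*, *Hist1h1b*, *Cenpe*, *Birc5*, *Prc1* and *Top2a* among the 10 largest folds over the other selected cells. These were not even over libraries, as *Top2a* ranged from 3.52 to 213 CPM and *Prc1* from 0 to 103 CPM, and the chemokine gene *Cxcl3*, first by fold, from 7.34 to 221 CPM. *Saa3*, an acute phase protein that was also among these 10, had 2612, 3970.3, 802 and 9417 CPM in the 4 libraries. Cluster 5 had 294, 1106, 1762 and 7837.5 CPM, which in M5 was more than in cluster 4, so that the libraries of both clusters overlapped. In cluster 4, *Cxcl5*, a neutrophil chemokine, had 1502, 2053, 1042 and 1764 CPM. *Acta2* had 260.2, 516, 609 and 31.7 CPM and *Mki67*, a marker of cycling cells, 94.1, 91.1, 150.4 and 21.1 CPM. M6 was thus highest of the 4 libraries in *Saa3* and lowest in *Acta2* and *Mki67*, in cells that numbered 13, 12, 13 and 8 in M1, M2, M5 and M6. After thinning, 34.1% (15 of 44, 20.5 to 49.9) of cluster 4 cells had a UMI of *Mki67* or *Top2a*, against 10.4% and 7.89% in clusters 3 and 5. The cells kept for thinning had median depths of 45030, 35196 and 22086 UMIs in clusters 4, 3 and 5. Without thinning the shares were 56.5%, 30.6% and 12.5%.

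Cluster 3 (49 cells) was led by cytotoxic lymphocyte genes. *Gzmd*, *Gzmc*, *Gzme*, *Gzmf*, *Gzma*, *Prf1* (perforin) and *Gzmb* were among its 8 largest folds over the other selected cells, with *Gzma* at 12.5 to 1019 CPM over libraries. Lower in that order stood *Il11*, a cytokine of the IL-6 family, with 590.4, 1396, 521 and 735 CPM in the 4 libraries, and *Timp3* (1685 CPM). The cluster also had 7161 CPM of *Timp1*, against 2954 and 1037 CPM in clusters 4 and 5, with the chemokine *Cxcl14* at 1572 CPM and the alarmin *Il33* at 1209 CPM. *Cxcl9*, a chemokine induced by interferon-gamma that attracts T cells, had 872, 2242, 3889 and 6901 CPM there, a wide spread between libraries. The cluster had the least *Col1a1* of the 3, at 4520.1 CPM. All 3 selected cells with a doublet score over 0.25 were in it. At least 3 UMIs of a list of 10 leukocyte genes, *Cd3e* not counted, were found in 12 of its cells, in 8 of cluster 4 and in 4 of cluster 5. Most *Gzma* in cluster 3 lay in a few cells. It was at 562 CPM in the whole cluster, with 97.5% of its UMIs in 5 cells, and at 16.1 CPM without the 12 cells. Without those cells the cluster had *Timp1* at 8421, *Il11* at 957 and *Cxcl9* at 2394 CPM, against 780.1 CPM of *Il11* and 2884 CPM of *Cxcl9* in the whole cluster.

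**Figure D3:**
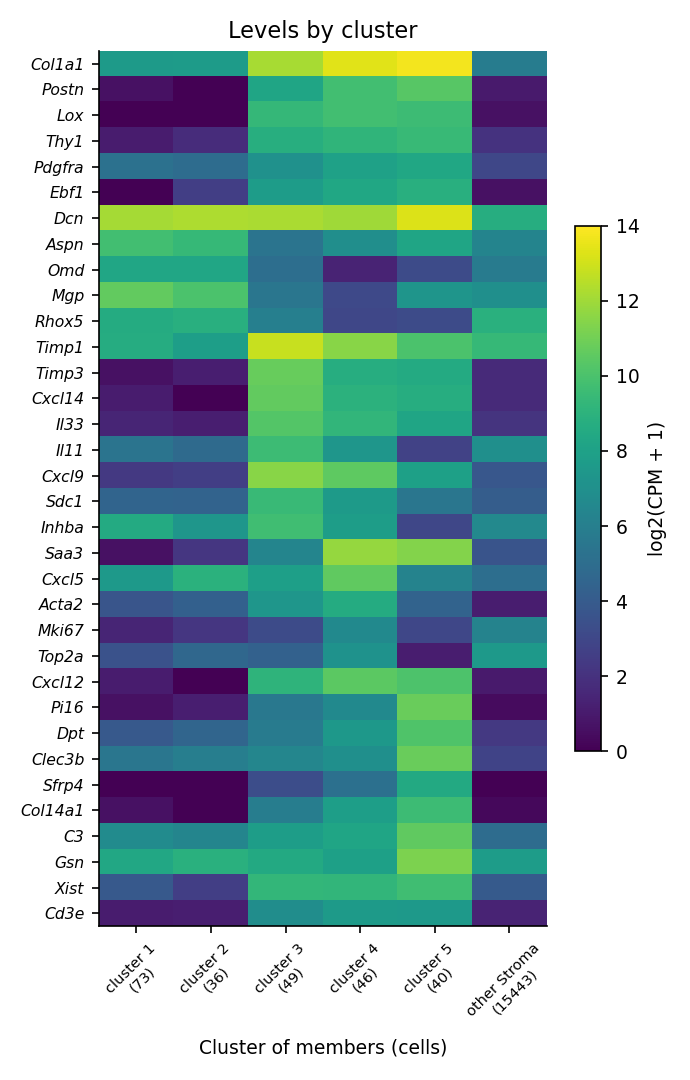
Level of chosen genes in the 5 clusters of the selected cells and in the other Stroma cells as log2(CPM + 1), with clusters ordered by median *Col3a1* share. The granzyme genes and *Prf1*, which had most of the largest folds of cluster 3, are not drawn. *Pi16*, *Dpt* and *Clec3b* peak in cluster 5, *Saa3* and *Cxcl5* in cluster 4, *Timp1*, *Il33* and *Il11* in cluster 3, and *Mgp* and *Omd* in the low-collagen clusters, all with libraries pooled.

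Against the high-collagen cells, the 109 low-collagen cells were marked by a set of matrix genes other than the collagens. Against the other Stroma cells their collagens were higher too, with the fibrillar ones, *Col3a1* included, at a sum of 3542 against 747 CPM. *Mgp* (matrix Gla protein, an inhibitor of calcification) had 1244, 1226, 169 and 3602 CPM in low-collagen cells, 97.7, 17.3, 26.2 and 27.0 CPM in high-collagen cells and 173, 123, 46.7 and 83 CPM in other Stroma cells. *Mgp*, *Omd*, *Aspn*, *Ogn*, *Mmp3* and *Dcn* were thus higher in these cells than in the other Stroma cells over all libraries, although *Mgp* in the 6 low-collagen cells of M5 lay within the range of the other Stroma libraries. *Postn*, *Lox*, *Thy1*, *Sfrp2*, *Cthrc1*, *Ccl11* and *Ptx3* were at or near 0 in both. *Rhox5*, an X-linked homeobox gene silent in most adult tissue and active in many tumor lines, had 359 to 457 CPM in the low-collagen libraries, 429 to 515 CPM in other Stroma and 2.25 to 47.3 CPM in high-collagen cells. Among the latter it was at 64.2 CPM in cluster 3 (0 to 115 over libraries) and at 6.89 and 8.21 CPM in clusters 4 and 5. Between the low-collagen clusters, *Csf2* (the growth factor GM-CSF) had 110.5 CPM in cluster 1 (73 cells, 0 to 149 over libraries) and 4.95 CPM in cluster 2 (36 cells), whereas *Lcn2* (lipocalin 2) had 15.1 and 238 CPM (0 to 278 in cluster 2). Cluster 2 held 2 and 1 cells in M5 and M6. *Agt* (angiotensinogen) led cluster 1 over the other selected cells, at 93.1 CPM (21.6 to 110 over libraries) against 5.72 CPM.

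Below the cut the other Stroma cells followed a gradient toward the low-collagen cells. The 4576 cells with up to 0.01% of UMIs on *Col3a1* had 322 CPM of *Dcn*, 101 CPM of *Mgp* and 10.1 CPM of *Xist*. From cells without *Col3a1* through cells with 0.01% to 0.025%, 0.025% to 0.05% and 0.05% to 0.1% of UMIs on it, *Dcn* had 180.0, 1086, 1849 and 3148 CPM, and between 0.1% and 0.2% it had 4638 CPM. *Mgp* went over the same steps from 59.2 to 703 CPM and then to 1046 CPM. *Xist* had 18.3 CPM in cells without *Col3a1*, 11.1, 16.4 and 33.3 CPM over those steps and 106 CPM between 0.1% and 0.2%. It was found, without thinning, in 10.8% of cells without *Col3a1* and in 9.39% of those between 0.05% and 0.1%, then in 17.1% between 0.1% and 0.2%, 30.0% between 0.2% and 0.3% (20 cells), 73.3% between 0.3% and 0.5% (15 cells) and 95.8% between 0.5% and 1%. Median depth was 39416 UMIs without *Col3a1*, 52770 with up to 0.01%, and 31952.5, 27474 and 27131.5 over the 3 steps up to the cut. *Postn* was between 0.347 and 2.38 CPM in all bins below the cut, and had 26.5, 90.1, 380.5 and 378 CPM in the 4 bins from the cut to 1%.

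**Figure D4:**
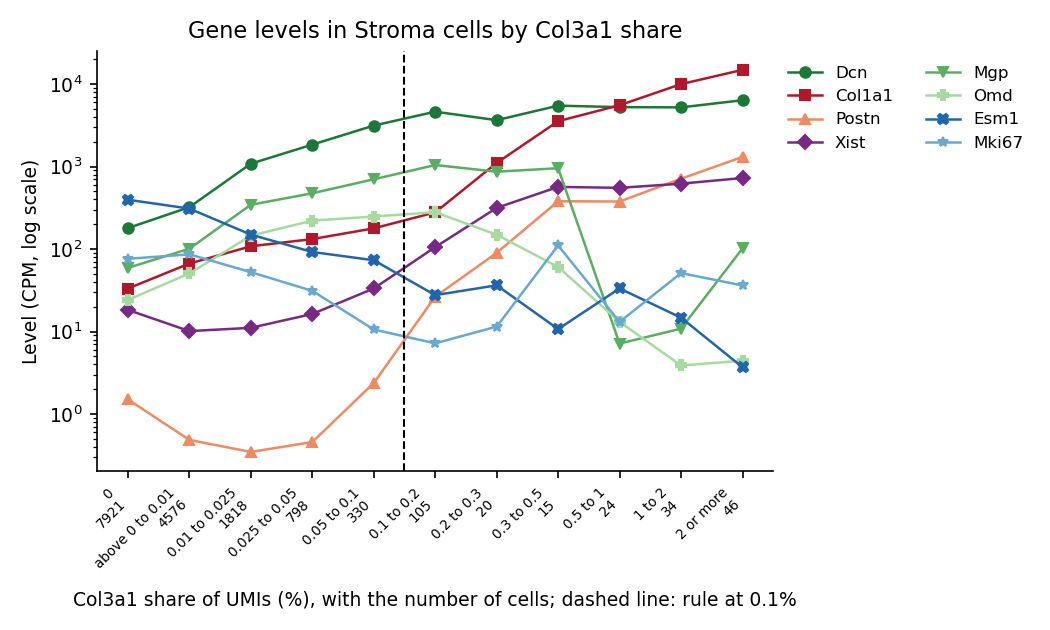
Levels in CPM (log axis) in Stroma cells binned by the share of UMIs on *Col3a1*, with the cells in each bin under its label and the cut at 0.1% as a dashed line. *Dcn* climbs from 180.0 to 3148 CPM below the cut, whereas *Postn* is at 2.38 CPM or less below the cut, at 26.5 CPM in the bin just above it and at 380.5 CPM between 0.3% and 0.5%.

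Among genes with at least 50 CPM in the other Stroma cells, those called lower in the selected cells were led by *Nppb* (a natriuretic peptide, log2 ratio -5.08, -7.80 to -4.41 over libraries), *Slurp1* (-4.38), *1700012B09Rik* (-4.15), *Esm1* (endocan, -3.90) and *Phgdh* (the first enzyme of serine synthesis, -3.22). *Esm1* had 2.57 to 28.0 CPM in the selected cells of the 4 libraries and 233 to 363 CPM in the other Stroma cells, and *Phgdh* 18.0 to 56.2 and 359 to 434 CPM, without overlap. The decrease began below the cut, where *Esm1* went from 397 CPM in cells without *Col3a1* to 73.3 CPM between 0.05% and 0.1%, *Nppb* from 189.9 to 18.4 CPM and *Phgdh* from 438 to 95.3 CPM.

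Proliferation genes were lower as a list, with 10 of 20 called lower, none higher and a median log2 ratio of -1.88. *Ube2c*, a mitotic ubiquitin-conjugating enzyme, had 11.3 to 98.8 CPM in the selected and 323 to 429 CPM in the other Stroma cells, and *Cenpf* (a kinetochore protein), *Racgap1* (of cytokinesis) and *Cdc20* (a mitotic activator of ubiquitination) were also called. *Mki67* and *Top2a* were not called. After thinning, 11.6% (27 of 233, 7.78 to 16.4) of selected cells had a UMI of either gene, against 34.7% of other Stroma cells, and the share was 17.7% in high-collagen and 3.88% in low-collagen cells. *Mki67* was at 2.32 CPM in low-collagen, 44.9 CPM in high-collagen and 75.3 CPM in other Stroma cells. Of 18 glycolysis and hypoxia genes, *Hk2* (hexokinase 2) and *Adm* (adrenomedullin) were higher and *Car9* (a carbonic anhydrase) lower, with a median log2 ratio of -0.30.

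Among 21 inflammatory genes tested, 13 were higher and none lower, and most of these sat with the high-collagen cells. *Cxcl12*, the ligand of CXCR4, had 698, 915, 1298 and 1338 CPM in high-collagen cells and 0 to 1.17 CPM in low-collagen libraries. *Ccl11* (eotaxin) had 535, 1041, 672 and 763 CPM and *Ptx3*, a soluble pattern recognition protein, 336, 972, 679 and 812 CPM, and neither had a UMI in the low-collagen cells. *Ccl2*, a monocyte chemokine, and *Cxcl1*, a neutrophil chemokine, were in contrast at 4760.5 and 2604 CPM in high-collagen, 5316 and 3248 CPM in low-collagen and 2156 and 1752 CPM in other Stroma cells and were not called. *Il6* had 155, 10.0 and 1.84 CPM in the 3 sets, and *Osmr*, the receptor chain for oncostatin M, 167, 16.6 and 2.33 CPM.

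Complement genes were higher in 8 of 9 cases (median log2 ratio 3.5). *Serping1*, the inhibitor of C1, had 1371 CPM in high-collagen, 283 in low-collagen and 89.9 in other Stroma cells, and *C2* had 192, 1.16 and 0.839 CPM. The proteases *C1ra* and *C1s1* were at similar levels in high-collagen (206 and 389 CPM) and low-collagen cells (205 and 342 CPM) and lower in other Stroma cells (54.9 and 98.2 CPM).

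Genes of antigen presentation and interferon response hardly separated the selected cells from the other Stroma cells. Of 31 tested, *Cxcl9* alone was called, with 1262, 1734, 1512 and 3341 CPM in high-collagen cells, 4.09, 4.11, 14.7 and 0 CPM in low-collagen cells and 10.3, 12.9, 19.4 and 15.8 CPM in other Stroma cells, and the median log2 ratio of the list was 0.17. *Cxcl10*, a chemokine of the same receptor, was at 1015, 852 and 633 CPM, and *B2m*, the light chain of class I molecules, at 3428, 3191 and 2472 CPM. None of 6 class II genes tested was called. *Cd274*, which encodes the PD-1 ligand PD-L1, had 20.2 to 63.3 CPM in high-collagen libraries, 22.0 to 31.6 CPM in low-collagen libraries and 28.0 to 74.7 CPM in other Stroma libraries, which overlapped. *Tnfsf18*, the gene of GITR ligand, gave 1 UMI in the 244 cells. Of the 11 genes of lymphocyte contact tested, *Icam1*, an adhesion ligand of integrins (159, 4.63 and 5.40 CPM in the 3 sets), *Cd276* and *Nectin2* were called higher, and *Vcam1*, also an integrin ligand, was at 292, 387 and 336 CPM.

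In the TGF-beta and BMP system 8 of 19 genes tested were higher and none lower. *Tgfbr2*, the type II receptor of TGF-beta, had 351 CPM in high-collagen, 29.3 in low-collagen and 16.6 in other Stroma cells, and *Ltbp2*, a microfibril-associated binding protein, had 183, 1.16 and 1.65 CPM. *Grem1*, a BMP antagonist, was at 58.8, 180.2 and 67.7 CPM and was not called. Among growth factors and receptors 13 of 20 were higher, including *Igf1* (123, 1.93 and 0.280 CPM) and *Fgfr1*, which was at 295 and 298 CPM in high-collagen and low-collagen cells and 56.5 CPM in other Stroma cells.

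Of 19 fibroblast lineage transcription factors tested 7 were higher and none lower, with a median log2 ratio of 0.87. *Prrx1* and *Twist1*, factors of mesenchymal cells, were at 421 and 125 CPM in high-collagen, 443 and 190.3 CPM in low-collagen and 218 and 167 CPM in other Stroma cells, and neither was called. *Ebf1*, a factor of stromal and B lineage cells, had 263, 301, 356 and 309 CPM in the high-collagen cells and 0 to 2.34 CPM in the low-collagen libraries. *En1*, a homeobox factor of dorsal skin fibroblasts, had 20.6, 23, 21.4 and 21.4 CPM in high-collagen cells and no UMI in low-collagen cells. The Hox genes, which record position along the body axis, were divided too. *Hoxc8*, *Hoxc9*, *Hoxc10* and *Hoxb2* gave 140, 105, 173 and 76 UMIs in the 135 high-collagen cells and none in the 109 low-collagen cells, and were called higher, while *Hoxa9*, *Hoxa10* and *Hoxc6* were at 7.81, 10.2 and 23.4 CPM in high-collagen and 12.4, 15.4 and 35.1 CPM in low-collagen cells.

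*Cd3e*, which encodes the epsilon chain of the T cell receptor complex, was detected in many high-collagen cells. It had 92.2, 280.2, 130.2 and 191 CPM in the 4 libraries, against 0.585, 4.11, 0 and 0 CPM in the low-collagen cells and 1.46 to 2.23 CPM in other Stroma libraries, with no overlap between the high-collagen cells and either set. After thinning it was found in 31.5% (41 of 130, 23.7 to 40.3) of high-collagen cells, in 0 of 103 low-collagen cells (which allows up to 2.91%), in 0.833% of other Stroma cells, in 3.35% of NK cells, which carry no T cell receptor, and in 21% (363 of 1732) of Myeloid cells, which should lack the gene too. The median depths are those given for *Xist*, and 13602 UMIs in the Myeloid cells kept for thinning, with 948 shallower ones left out. The level in Myeloid cells was 78.0 CPM, and their *Cd3e* was 0.595 times *Cd3d*. Without thinning it was found in 75 of the 135 high-collagen cells, with 748 UMIs and up to 68 in a cell.

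The other chains of the complex did not accompany it in the ratio found in T cells. The high-collagen cells had 58 *Cd3d* and 134 *Cd3g* UMIs, so that *Cd3e* was 12.9 times *Cd3d*, against 0.554 times in T cell EFF and 0.673 times in other Stroma cells. By library it was 6.61, 73, 5.36 and 28.3 times *Cd3d*, and 8.44 times without M2, the library with the highest value. In the 7 cells of cluster 3 in M5 it was 0.696 times. The T cell receptor constant regions *Trac*, *Trbc1* and *Trbc2* had 38, 116 and 127 UMIs. Of the 76 high-collagen cells without any UMI of *Cd3d*, *Cd3g*, *Trac*, *Trbc1* or *Trbc2*, 39 still carried *Cd3e*, with 395 UMIs. In 20 high-collagen cells *Cd3e* had 10 or more UMIs, 4, 8, 3 and 5 of them in the 4 libraries. All 20 had an *Xist* UMI, 6 had *Cd3d* or *Cd3g*, 5 had *Ptprc* and none had a doublet score over 0.25, and the lowest level of *Col1a1* among them was 469 CPM.

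*Cd3e* lies on the minus strand of chromosome 9 from 44998740 to 45009627 (GRCm38, GENCODE M21). The annotation has 1 gene on the same strand and 1 on the opposite strand that overlap it, *Gm48720* and *Gm48719*, and the counts do not show which part of the locus the reads came from. What produced the *Cd3e* counts was not tested.

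**Figure D5:**
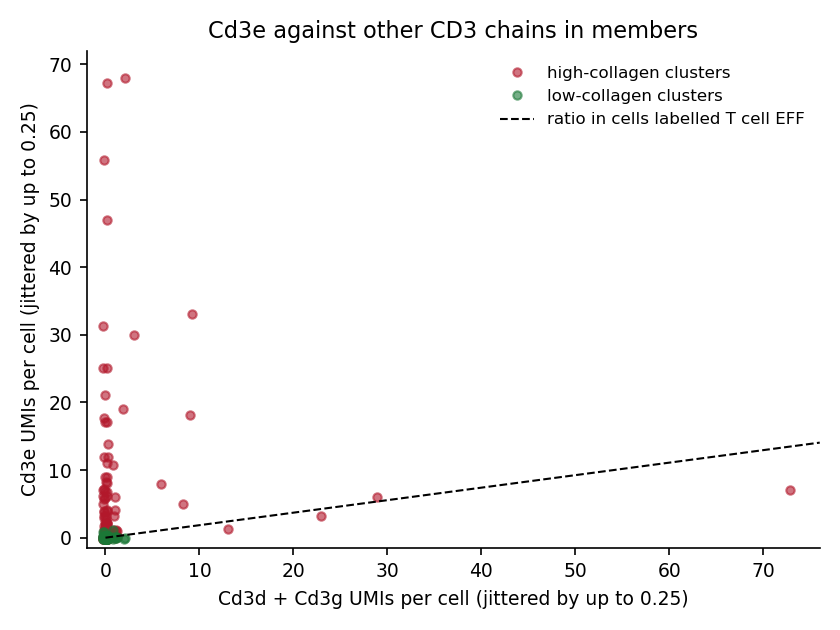
*Cd3e* UMIs against summed *Cd3d* and *Cd3g* UMIs, 1 point per high-collagen (red) or low-collagen cell (green), with the ratio found in T cell EFF as a dashed line. Most points with many *Cd3e* UMIs lie above the line at 0 on the horizontal axis, and high-collagen cells had 3.90 *Cd3e* UMIs per *Cd3d* or *Cd3g* UMI over all libraries, and T cell EFF 0.185.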

How the data were processed

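Cells of CT26 tumors were profiled with Chromium 3' V3 chemistry. The authors deposited raw UMI counts, made with Cell Ranger 3.0.2 (per the submitters' processing notes) on the mouse reference GRCm38, together with each cell's library name and its cell type label, given by correlation with ImmGen profiles. Whether doublets or free RNA were removed is not given in the sources used here. The counts of all 33961 cells summed to the deposited totals, and all 31053 table entries named a gene. The members of the set, the gene lists and the markers were chosen with earlier results of these data known.

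Counts were summed over cells per set and library and scaled to CPM (Python 3.11.15, numpy 2.4.6, scipy 1.17.1, pandas 2.3.3). Log2 ratios used a pseudocount of 1 CPM over genes with at least 10 CPM in either set. A gene was called higher or lower when it passed 2-fold in the same direction in each of the 4 libraries. The rule was run on simulated sums with known changes, drawn without spread between cells. Such a run cannot show how the rule behaves where a few cells dominate a sum. Shares of cells with a UMI were counted after thinning each cell without replacement to 5000 UMIs, and intervals are exact 95% binomial intervals for counting error only. For a count of 0, up to 3 counts were taken as possible. UMIs remove PCR copies, but cells of 1 library are not replicates. Selected cells were clustered with scanpy 1.11.5 (2000 variable genes, 20 principal components, 15 neighbours, Leiden resolution 0.6, chosen after seeing the clusters). Doublets were scored with scrublet per library (expected rate 0.06) and kept, with a score of 0.25 as an alternative. Named genes were the markers and list members, the 15 highest and 10 lowest log2 ratios with at least 50 CPM among called genes, host cell genes and leading genes of the clusters. *Rhox5*, *Baiap2l1*, *Cd3e* chain counts, *Csf2*, *Lcn2* and *Agt* were added after the data were seen. *Pla2g2a*, of the inflammatory list, is not in the table. Gene positions are from GENCODE M21. Because libraries were not matched to treatments, no test between groups was run.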

Additional observations from a re-analysis of the deposited data

How the results depend on the processing

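The number of selected cells moved with the cut on *Col3a1*, and the gene counts moved with the cut, the pseudocount and the CPM filter. With the cut at 0.05% of UMIs, 574 cells (3.66% of Stroma) were selected, 607 genes were higher and 23.5% of the cells had *Xist*. With a cut at 0.2% there were 139 cells (0.886%), 520 lower genes and 78.0% with *Xist*. A pseudocount of 10 CPM left 622 higher and 151 lower genes, and a filter at 50 CPM, which tests fewer genes, left 427 and 146. Shares moved with depth. Thinned to 2000 UMIs, 36.9% of selected and 2.21% of other Stroma cells had *Xist*. At 20000 UMIs the shares were 60.7% and 6.42%, with 14.2% of selected cells for *Ptprc* and 24.6% for *Mki67* or *Top2a*. Without thinning these were 55.3%, 10.6%, 13.1% and 30.7%. Without cells over the doublet score, 2.80% of other Stroma cells had *Xist*. Without cells holding 3 or more leukocyte UMIs, 1.19% of Stroma cells were selected, 64 of them high-collagen, and *Xist* was found in 34.4% of selected and 2.17% of other Stroma cells and *Ptprc* in 0.625% of selected cells. *Cd3e* and *Ptprc* are among the genes of that filter. With *Cd3e* not counted, an alternative chosen after seeing the data, clustering anew gave 112 high-collagen cells, and the shares were 2.21% of other Stroma cells for *Xist* and 0.485% of selected cells for *Ptprc*. Leaving out 1 library at a time gave 115 to 210 selected cells (1.23 to 1.87% of Stroma), 957 to 1102 higher and 360 to 454 lower genes, and shares of 43.1 to 65.1% for *Xist*, 3.0 to 4.79% for *Ptprc* and 10.6 to 12.5% for *Mki67* or *Top2a* in selected cells and 3.13 to 3.81% for *Xist* in other Stroma cells. The lowest count of selected cells was without M1. The gene calls then asked for 2-fold in the 3 libraries left and not in 4, which is a weaker demand. High-collagen cells, clustered anew in alternatives added after seeing the data, numbered 133 and 135 at resolutions 0.3 and 1.0. The number of clusters moved with the resolution, to 3 and 10 in place of 5, so the single clusters described above depend on it. Of the 135 high-collagen cells, 83 to 108 lay in the libraries left when 1 was left out. In high-collagen cells *Cd3e* was 8.44 to 18.6 times *Cd3d* with 1 library left out, lowest without M2, and 205 times without the cells holding leukocyte UMIs (*Cd3e* not counted), a filter that counts *Cd3d*; both alternatives were added after seeing the data. Of 714 log2 ratios recomputed for 42 named genes under 17 settings, 712 kept their sign, and 593 stayed within the range over libraries. Most of these genes were named for their large ratios, which makes a change of sign unlikely. The exceptions were both *Ptprc*, at -0.48 and -0.39 without the cells holding leukocyte UMIs, a filter that removes *Ptprc* by construction. The cause of the other changes was not tested. No paired analysis was possible because replicate numbers in the labels are not tied to library names.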

Other observations

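Further genes had large log2 ratios between the selected and the other Stroma cells. *Meg3*, an imprinted noncoding RNA, had a log2 ratio of 8.68 (8.21 to 8.91 over the 4 libraries) and *Cpxm1*, a carboxypeptidase-like secreted protein, 8.56 (8.06 to 9.28). *Sfrp2*, a secreted modulator of Wnt signalling, had 539, 386, 499 and 653 CPM in the high-collagen cells of M1, M2, M5 and M6, and *Gpx3*, a secreted glutathione peroxidase, 449.7, 345, 453 and 729 CPM. *Rcn3*, a calcium-binding protein of the secretory pathway, had a log2 ratio of 7.98. Of the 17 tested genes known from universal and adventitial fibroblasts, 13 were higher and none lower, with a median log2 ratio of 4.23. Among them *Cd34*, a surface sialomucin, was not called, at 233 CPM in high-collagen, 246 in low-collagen and 280.2 in other Stroma cells, although cluster 5 reached 773 CPM.

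Keratinocyte markers were lower in 4 of 5 cases tested, and the list summed to 19.7 CPM in the selected and 117 CPM in the other Stroma cells. The mesothelial gene *Msln* (mesothelin) was lower too, at 18.3 and 102 CPM. Markers of adipocytes summed to 38.5 CPM in the selected and 14 CPM in the other Stroma cells and rested on *Fabp4*, a fatty acid binding protein. Markers of macrophages and monocytes summed to 48.5 CPM in the selected and 36.4 CPM in the other Stroma cells, of neutrophils to 3.61 CPM in the selected and 13.3 CPM in the other Stroma cells, of dendritic cells to 8.89 CPM in the selected and 1.66 CPM in the other Stroma cells and of skeletal muscle to 4.03 CPM in the selected and 2.54 CPM in the other Stroma cells. Of the 5 dendritic cell markers, 4 had no UMI in the selected cells. Their sum rested on *Ccr7*, at 33.7 CPM in cluster 3 (0 to 65.5 over libraries). In the T cell list *Cd3e* and *Cd3g* were called higher, and in the NK cell list none of the 2 genes tested was called. Whether free RNA, cell doublets or transcription in the cells gave these leukocyte transcripts was not tested.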
